A study of Mus musculus with 469 samples.

Results

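The genes described here carry material into, along and out of the cilium and form the gate at its base: 41 genes of the 23281 named genes in the expression table. They were taken by symbol: every Ift, Bbs, Nphp, Tctn and B9d gene followed by a number, with Ttc8, Arl3, Arl6, Arl13b, Kif3a, Kif3b, Kifap3, Kif17, Dync2h1, Dync2li1, Rpgr and Cep290. By role they are 10 subunits of intraflagellar transport complex B, 3 of complex A, 6 motor subunits, 7 BBSome subunits, 2 chaperonin-like genes, 3 small GTPases and 10 transition zone genes. The rule used symbols and no measured value, but it was set with earlier results of these data known.

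Intraflagellar transport builds and maintains cilia: kinesin-2 motors haul trains of the B and A complexes, with tubulin and membrane cargo, from the base to the tip, and dynein-2 hauls them back. The BBSome, a coat of Bardet-Biedl syndrome proteins, rides these trains and moves membrane receptors, while the transition zone, a collar of linked protein modules above the basal body, decides what passes. In the olfactory epithelium the mature sensory neuron bears a tuft of long non-motile cilia on its dendritic knob, where odorant receptors and their signalling proteins are held, and loss of BBSome genes is a known cause of impaired smell. Sustentacular cells, the supporting cells around the neurons, carry microvilli.

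RNA of single mouse cells, captured 1 by 1 on the Fluidigm C1 system, was sequenced from animals 8 weeks old. Neurog1-eGFP+ cells, progenitors and their recent progeny, were sorted from FVB Neurog1-eGFP mice with uninjured epithelium (61 libraries) and at 5 days (51) and 14 days (26) after olfactory bulbectomy, the removal of the olfactory bulb, after which sensory neurons die and are replaced. OMP-eGFP+ cells, mature sensory neurons, were sorted from B6 OMP-eGFP mice 14 days after bulbectomy (50 libraries) and, in a further group labelled engrafted, from epithelium after transplantation (89); the labels read here do not describe the host. The reference was unsorted, uninjured epithelium of wildtype B6;129SF1/J (F1) mice in 2 runs (96 libraries each). Sort and strain went together, so these cannot be told apart in any comparison between the Neurog1 sorts, the OMP sorts and the reference. Between the OMP sorts and the uninjured reference, bulbectomy or transplantation differed as well and cannot be told apart from them. The eGFP of each line marks cells by the promoter of its own gene and can outlast that gene's RNA.

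Libraries with 1000 or more genes at a value of 1 or more were used: 46, 48 and 25 in the Neurog1 sorts, 42 and 29 in the OMP sorts and 68 and 70 in the reference runs. The filter left out 60 of the 89 engrafted libraries. Recovered depth ran from 13369 to 2186034 fragments per library, with medians per group from 501827 in the engrafted to 1347935 in the 14 day OMP sort. Of the 41 genes, 8 overlap another protein-coding gene, named where each is described. The labels name no animal, so each group stood as 1 sample, cells were not replicates, and no test between groups was possible. In the reference, 9 libraries of run 1 held over 10000 genes, and some results that include them are given with and without them. The summed level of 12 markers of mature neurons had medians of 1607, 1866 and 1151 CPM (a library's signal scaled to a total of 1000000) in the Neurog1 sorts, 16588 and 17504 in the OMP sorts and 8242 in the reference. Its means were 5870, 2369 and 1872 CPM in the Neurog1 sorts, 17172 and 16682 in the OMP sorts and 16074.5 in the reference. For 8 precursor markers the medians were 11219.6, 7493, 10431, 3125, 8.80 and 674 CPM in the same order, and for 10 markers of immature neurons 6630.2, 7440, 6023, 3957, 1355 and 694. Those of 10 sustentacular markers were at most 24.6 in the sorts and 8249 in the reference, although 1, 2 and 1 libraries of the Neurog1 sorts and 3 in each OMP sort held 5 or more of these markers. Markers of horizontal basal, Bowman gland, microvillar, immune and ensheathing glial cells had a median of 0 in all 6 groups.

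Part of the list shares a sequence pattern near its start sites. RFX factors, which switch on ciliary genes, bind an X-box made of a pair of sites, GTTNCC and GGNAAC, with a gap of up to 3 bases. RefSeq promoter windows (build GRCm38.p6, 250 bases before to 50 after a start) were at hand for 35 of the 41 genes. The motif GTTGCC, on either strand, stood in the windows of 18 of them (51.4%), against 14.1% of 27025 genes with a window. The pair, GTTNCC followed by GGNAAC, which can overlap GTTGCC, stood in 4 (Ift57, Bbs7, Tctn1 and Tctn3; 11.4% against 0.936%). Both backgrounds were every gene with a window, not matched to the list for expression or base composition. The pattern was chosen from what is known of RFX factors, and a match is a description of letters, not a bound site. A stretch of each of 3 such promoters is shown, 5′ to 3′ on the gene's strand with the matches in capitals, for Bbs7 (chr3:36613457-36613550, minus strand), Tctn3 (chr19:40612319-40612411, minus strand) and Ift57 (chr16:49699167-49699286, plus strand), because Bbs7 and Tctn3 were among the genes furthest apart between the sorts and Ift57 holds a further, separate GTTGCC beside the pair.
Bbs7: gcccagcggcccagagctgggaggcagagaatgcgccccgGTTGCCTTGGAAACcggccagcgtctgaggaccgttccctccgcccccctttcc
Tctn3: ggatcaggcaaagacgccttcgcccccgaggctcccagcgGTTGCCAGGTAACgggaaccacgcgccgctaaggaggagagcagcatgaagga
Ift57: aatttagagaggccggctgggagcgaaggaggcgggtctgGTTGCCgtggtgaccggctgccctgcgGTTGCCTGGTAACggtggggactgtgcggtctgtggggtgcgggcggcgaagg
Of the RFX genes, Rfx3 had the highest mean, 631, 620.0 and 441.98 CPM in the Neurog1 sorts, 827 and 913 in the OMP sorts and 284.2 in the reference. Foxj1, the master regulator of motile cilia, stayed between 0.268 and 5.49 CPM over the 6 groups.

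Most of these genes were read in some cells of every group, and in the 14 day OMP sort more of them were found per cell than elsewhere. Found means a CPM of at least 10 in that cell, which was about 5.02 to 13.5 fragments at the median depths. A cell of the 14 day OMP sort held between 3 and 28 of the 41 genes, with a median of 18. The medians were 13, 13 and 10 in the Neurog1 sorts (lowest 2, 1 and 2, highest 26, 19 and 26), 12 in the engrafted sort (0 to 25) and 9 in the reference (0 to 39). Cells of all groups overlapped. With each cell thinned to 100000 fragments the medians were 14, 13, 11, 18.5, 13 and 10, leaving out 1, 3 and 2 shallower cells in the uninjured, engrafted and reference groups. The 14 day OMP sort thus stayed highest and the reference lowest at equal depth. The 9 reference libraries with over 10000 genes held 37 to 39 of the genes each, and without them the highest reference cell held 26 and the median was 8.

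**Figure D1:**
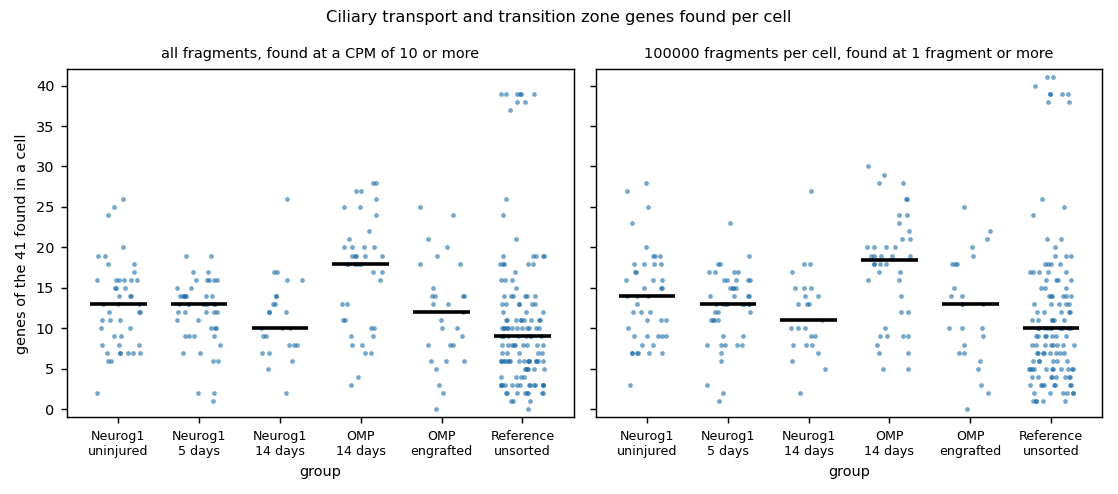
Number of the 41 genes found in each cell (vertical axis, points are cells, bars are medians) by group, with all fragments on the left and with 100000 fragments per cell on the right. The 14 day OMP sort has the highest median in both panels (18 and 18.5), and 9 reference cells stand apart at 37 or more on the left.

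Genes per cell moved with these counts: the median number of genes was 3356 in the 14 day OMP sort, 2864, 2868 and 2697 in the Neurog1 sorts, 2431 in the engrafted sort and 2406 in the reference. Within groups the number of ciliary genes found and the number of genes per cell had Spearman coefficients from 0.569 (reference) to 0.852 (engrafted, 29 cells), and both measures share the depth and quality of the library. As a share of the genes found in a cell, the list took a median of 0.66% in the 14 day OMP sort, 0.549%, 0.546% and 0.468% in the Neurog1 sorts, 0.563% in the engrafted sort and 0.419% in the reference. The summed level of the list gave the same leader, with medians of 3577, 4277, 3928, 5813, 2731 and 2391 CPM in the order of the sorts and the reference.

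Complex B carries most of the anterograde cargo. Per length, Ift74, which with Ift81 forms the tubulin-binding pair of the complex, had the highest mean FPKM (the deposited level per length of transcript and depth) of the list in all 5 sorts, from 228.4 in the uninjured Neurog1 to 384.1 in the 14 day OMP sort. In the reference it stood at 78.4, below Ift43, B9d1 and Ift81. Ift74 overlaps the protein-coding gene Lrrc19, and the reads are not known to keep strand, so its reads could belong partly to that gene. Cells ranged widely: its lowest value was 0 in each group, as for every other gene of the list in every group. In the uninjured Neurog1 sort Ift74 had a median of 13.1 and a highest value of 3792 CPM, at 5 days a median of 162.2 and a highest value of 5664, and at 14 days a median of 133.7 and a highest value of 4855. The 14 day OMP sort had a median of 221.4 and a highest value of 4901, the engrafted sort a median of 46.5 and a highest value of 3607 and the reference a median of 0 and a highest value of 3848. The means, 459.8, 643 and 625 in the Neurog1 sorts, 763 and 551 in the OMP sorts and 151.4 in the reference, put every sort above the reference, while the cells of all groups overlapped.

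Among the other complex B genes, Ift81 had mean CPM values of 140.6, 116.02 and 211.6 in the Neurog1 sorts, 161.8 and 94.1 in the OMP sorts and 228.3 in the reference. Ift88, the core subunit whose loss abolishes cilia, had 211.1, 298.2 and 109.6 in the Neurog1 sorts, 185.4 and 131.05 in the OMP sorts and 79.7 in the reference. Ift46, which links outer dynein arms to the trains in motile cilia, had its highest means in the Neurog1 sorts: 216.6, 129.04 and 173.2 in the Neurog1 sorts, 57.2 and 38.7 in the OMP sorts and 79.9 in the reference. Ift52, a core subunit, had 113.6, 111.1 and 42.4 in the Neurog1 sorts, 62.8 and 44.98 in the OMP sorts and 91.9 in the reference. Ift20, the subunit that also works at the Golgi, had 69.6, 24.4 and 37.97 in the Neurog1 sorts, 47.7 and 20.8 in the OMP sorts and 27.5 in the reference. The peripheral subunit Ift80, in contrast to Ift46, had its highest means in the OMP sorts: 102.7, 60.2 and 34.4 in the Neurog1 sorts, 379.5 and 271.1 in the OMP sorts and 153.4 in the reference. Ift172, another peripheral subunit, was found in 40.5% of the cells of the 14 day OMP sort (25.6 to 56.7) and at means of 21.4, 16.2 and 16.9 in the Neurog1 sorts, 70.5 and 51.6 in the OMP sorts and 44.3 in the reference; the bracket is the exact Clopper-Pearson 95% interval, which covers the counting of cells only. The remaining complex B genes, Ift27 and Ift57, had group means between 3.85 and 49.6 CPM.

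Complex A, which drives retrograde transport and the entry of membrane proteins, was led by Ift43 with means of 86.9, 67.6 and 67.5 in the Neurog1 sorts, 97.3 and 56.5 in the OMP sorts and 117.004 in the reference. Ift43 was found in 60% to 73.8% of cells of the sorts and in 49.3% of the reference. Ift122, which overlaps Mbd4, and Ift140, which overlaps Tmem204, were found in at most 26.8% of the cells of any group. The motor subunits ranged from often to rarely found. Kif3a, a motor subunit of kinesin-2, had means of 386.6, 371.3 and 372.7 in the Neurog1 sorts, 441.4 and 273.3 in the OMP sorts and 247.3 in the reference, and was found in 80.95% of cells (65.9 to 91.4) in the 14 day OMP sort and 50.7% of cells (42.1 to 59.3) in the reference. Its partner Kif3b had 113.2, 101.2 and 34.6 in the Neurog1 sorts, 154.5 and 144.01 in the OMP sorts and 52.1 in the reference. Kifap3, the non-motor subunit that binds cargo, had 148.9, 387.9 and 287.2 in the Neurog1 sorts, 593 and 181.1 in the OMP sorts and 165.9 in the reference. The heavy chain of dynein-2, Dync2h1, had 389.96, 368.2 and 325.5 in the Neurog1 sorts, 356.6 and 244.5 in the OMP sorts and 206.9 in the reference, and overlaps the protein-coding gene Dcun1d5. Its light intermediate chain Dync2li1 had 62.1, 28.2 and 41.1 in the Neurog1 sorts, 53.8 and 21.1 in the OMP sorts and 28.8 in the reference. Kif17, a kinesin-2 homodimer tied to channel transport in olfactory cilia, had group means of at most 10.8 CPM and was found in at most 7.14% of cells.

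**Figure D2:**
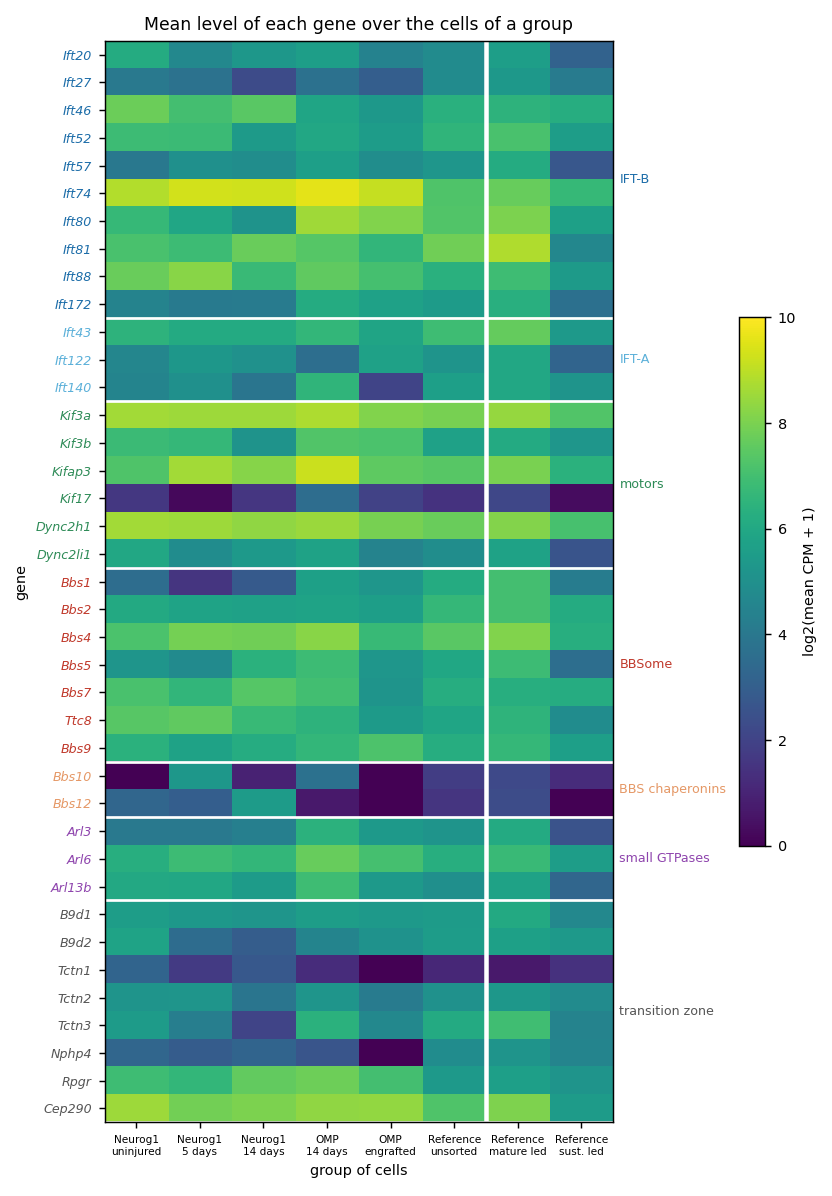
Mean level of 39 genes (rows, grouped and coloured by role) over the cells of each group (columns), as log2(mean CPM + 1); the last 2 columns split the reference by summed markers. Ift74, Kif3a, Dync2h1 and Cep290 are bright in all 5 sorts, and Bbs10, Bbs12 and Tctn1 are dark in most columns.

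Of the BBSome genes, Bbs4 had the highest mean in the 14 day OMP sort, with 141.9, 242.01 and 227.8 in the Neurog1 sorts, 299.4 and 105.7 in the OMP sorts and 170.9 in the reference. Bbs7 and Ttc8, both coat subunits, were lower in the engrafted sort than in any other sort: Bbs7 had 140.8, 95.3 and 163.8 in the Neurog1 sorts, 123.5 and 35.2 in the OMP sorts and 73.7 in the reference, and Ttc8 had 170.3, 185.5 and 104.8 in the Neurog1 sorts, 86.6 and 42.5 in the OMP sorts and 57.8 in the reference. Bbs2 had 66.4, 55.4 and 51.9 in the Neurog1 sorts, 55.2 and 47.7 in the OMP sorts and 99.5 in the reference. Bbs9, a scaffold of the coat, was the only BBSome gene with its highest mean in the engrafted sort, at 82.97, 52.9 and 72.9 in the Neurog1 sorts, 96.5 and 148.1 in the OMP sorts and 74.7 in the reference. Bbs5, which binds phosphoinositides, had 36.1, 26.6 and 83.1 in the Neurog1 sorts, 115.7 and 37.6 in the OMP sorts and 61.4 in the reference. Bbs1, the subunit that meets Arl6, had 10.98, 1.88 and 6.10 in the Neurog1 sorts, 50.03 and 36.99 in the OMP sorts and 70.6 in the reference, but 1 reference cell at 4620.5 CPM set much of the reference mean, which was 37.3 without it.

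The chaperonin-like genes Bbs10 and Bbs12, which help to assemble the BBSome, were rarely found. Bbs10 was listed at 0 in every cell of the uninjured Neurog1 and engrafted OMP sorts, which allows shares of up to 6.52% and 10.3% of cells (3 cells of the total). Bbs12 was listed at 0 in the engrafted sort and found in at most 6.52% of the cells of any group. Of the small GTPases, Arl6, which recruits the BBSome to membranes, had means of 76.9, 113.7 and 96.6 in the Neurog1 sorts, 204.3 and 132.97 in the OMP sorts and 76.3 in the reference. Arl13b, the exchange factor for Arl3 in the ciliary membrane, overlaps Stx19 and had 64.5, 62.99 and 43.5 in the Neurog1 sorts, 119.5 and 39.99 in the OMP sorts and 30.3 in the reference. Arl3, which releases lipid-bearing cargo inside the cilium, had 15.3, 15.5 and 19.1 in the Neurog1 sorts, 85.2 and 41.4 in the OMP sorts and 35.4 in the reference. The 14 day OMP sort held the highest mean of all 3.

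At the transition zone, Cep290, which ties the collar to the ciliary membrane and overlaps 4930430F08Rik, was the best represented gene, with means of 365.2, 232.96 and 260.6 in the Neurog1 sorts, 319.2 and 330.3 in the OMP sorts and 152.4 in the reference. It was found in 73.9% of cells (58.9 to 85.7) in the uninjured Neurog1 sort and 48.6% of cells (39.96 to 57.2) in the reference. Rpgr, the retinitis pigmentosa GTPase regulator, had 116.7, 96.2 and 192.3 in the Neurog1 sorts, 219.4 and 126.5 in the OMP sorts and 41.7 in the reference; a single cell at 4849.5 CPM set much of the 14 day OMP mean, which was 106.4 without it. B9d2, a subunit of the B9 complex, had 54.3, 10.52 and 6.63 in the Neurog1 sorts, 21.6 and 33.4 in the OMP sorts and 45.2 in the reference, and its partner B9d1 stayed between 36.02 and 46.6. Tctn3, a tectonic with the promoter stretch shown above, had 44.5, 18.3 and 3.13 in the Neurog1 sorts, 82.2 and 24.2 in the OMP sorts and 69.1 in the reference, and the related Tctn2 had 13.8 to 36.4. Tctn1, which overlaps Hvcn1, was found in at most 4.35% of cells. Nphp4, a collar subunit that overlaps Kcnab2, was found in 14.5% of reference cells and listed at 0 in the engrafted sort.

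**Figure D3:**
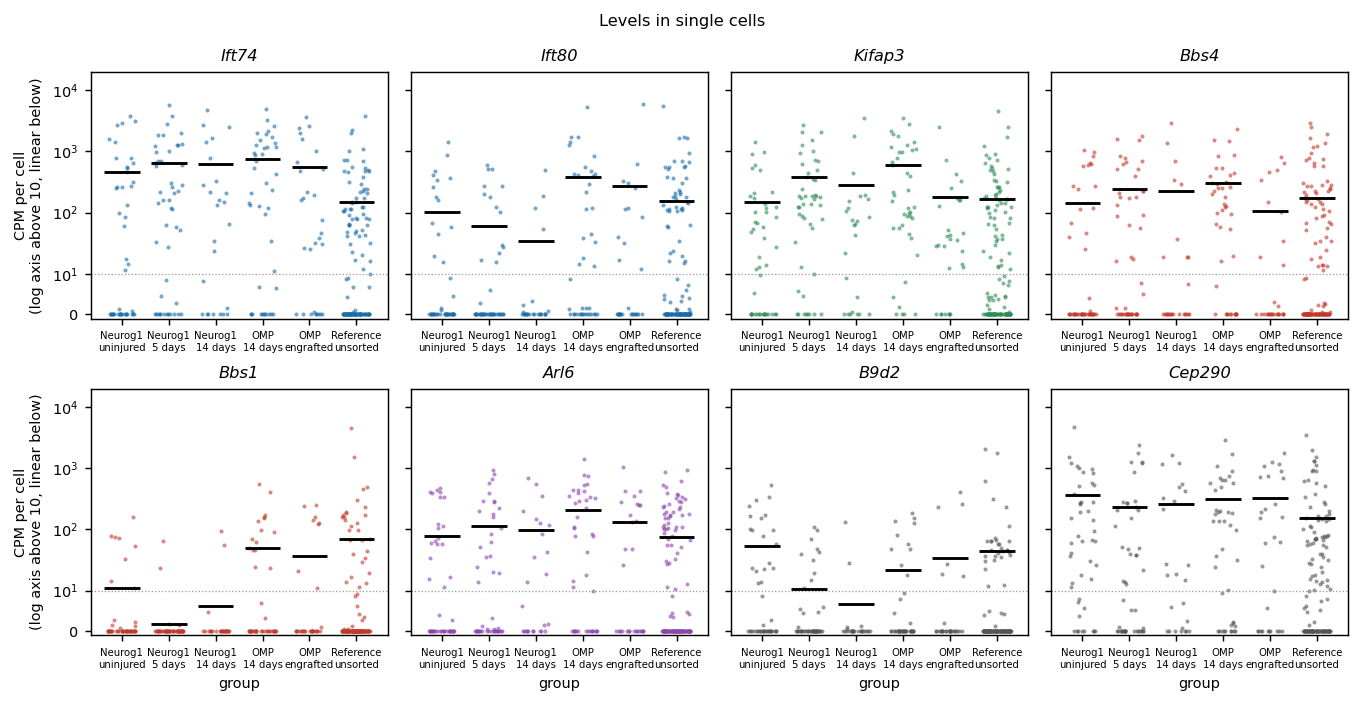
CPM of 8 genes in every cell (points) by group, with group means as bars; the axis is logarithmic above 10 and linear below, and the dotted line marks a CPM of 10. Cells at 0 occur in every group, and Bbs1 has 4.17% and 8% of cells above the line at 5 and 14 days in the Neurog1 sorts against 35.7% in the 14 day OMP sort.

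Cells of the OMP sort had higher means than Neurog1 cells 14 days after bulbectomy in most genes of the list. Of 40 genes measured (mean of at least 5 CPM on 1 side of the ratio or both), 32 had the higher mean in the OMP sort, among them all 6 motor genes, all 3 GTPases and 8 of 10 complex B genes. The count was 5 of 7 for the BBSome and 7 of 9 for the transition zone. At least 2-fold higher were 16 genes (40%), against 32.4% of all genes measured, and at least 2-fold lower were 4 (10%), against 28.6%. The median log2 ratio of mean CPM + 1, the scale of all ratios here, was 0.50 for the list and 0.04 for all genes. Without the sorted libraries that held 5 or more sustentacular markers 77.5% of genes were higher, with a median of 0.66. Mature marker sums differed in the same direction, and sort and strain cannot be told apart. The OMP sort also held markers of immature neurons, with a median sum of 3957 CPM against 6023 in the Neurog1 sort.

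Ift80, of complex B, had the largest difference in the share of cells. At 14 days it had a median of 0 and a highest value of 498 CPM in the Neurog1 sort and a median of 13.9 and a highest value of 5349 in the OMP sort, and was found in 16% of cells (4.54 to 36.1) and 52.4% of cells (36.4 to 67.996). It was the only gene of the list whose intervals did not overlap in this comparison, and its log2 ratio was 3.42. At 100000 fragments per cell the shares were 20% and 47.6%, and the intervals of all 40 genes overlapped. Tctn3 had a log2 ratio of 4.33, with 4% of Neurog1 and 23.8% of OMP cells. Bbs1 had 2.84, with 8% and 35.7%, and Kif3b had 2.13, with 20% and 47.6%. These are a gate subunit, a coat subunit and a motor, each found in more OMP cells. Ift140 had 2.65, but 1.65 without the highest cell of each group, and Bbs10 had 2.76 with 11.9% of OMP cells. The genes at least 2-fold lower in the OMP sort were Ift46 at -1.58, Tctn1 at -1.50, Ift122 at -1.44 and Bbs12 at -4.82. Ift46 was found in 64% of Neurog1 and 33.3% of OMP cells. Without the highest cell Ift46 was at -1.67 and Tctn1 at -0.56, while Ift122 turned to 0.89 and Bbs12 to 0.08, since 1 Neurog1 cell at 705 and another at 1106 CPM carried those means. The median of the list then became 1.27, and that of all genes in this setting is not given here. All 16 genes 2-fold higher stayed so without the highest cell. Leaving out a cell takes a larger part of the 25 Neurog1 than of the 42 OMP cells, so these values do not show a stronger difference.

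Lists of genes that work beside these were compared in the same groups. Other transport genes, further subunits and partners of the same complexes, were higher in the OMP sort in 14 of 24, with a median of 0.11. Other transition zone and basal body genes were higher in 12 of 20 (median 0.25), and genes for lipidated cargo and small GTPases in 5 of 10 (-0.02). Rabl2, a GTPase that joins complex B at departure, had a mean of 259.7 CPM in the OMP and 14.4 in the Neurog1 sort, whereas Traf3ip1, the complex B subunit also called Ift54, had 131.9 and 919.8. Olfactory cilium signalling genes were higher in 13 of 14, with a median of 2.48, although 8 of them are also markers of mature neurons. Ciliogenesis transcription factors were higher in 5 of 6 and motile axoneme genes in 8 of 13. Medians of these lists were 1.79 and 1.08. The 9 markers of multiciliated respiratory cells, which also carry cilia, summed to a median of 296.9 CPM in the OMP sort (0 to 6793) and 91.9 in the Neurog1 sort (0 to 1122). Their defining gene Foxj1 had means of 1.70 and 1.08, and Dnaic2 was at 0 in the Neurog1 sort. Their part in the difference was not tested.

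**Figure D4:**
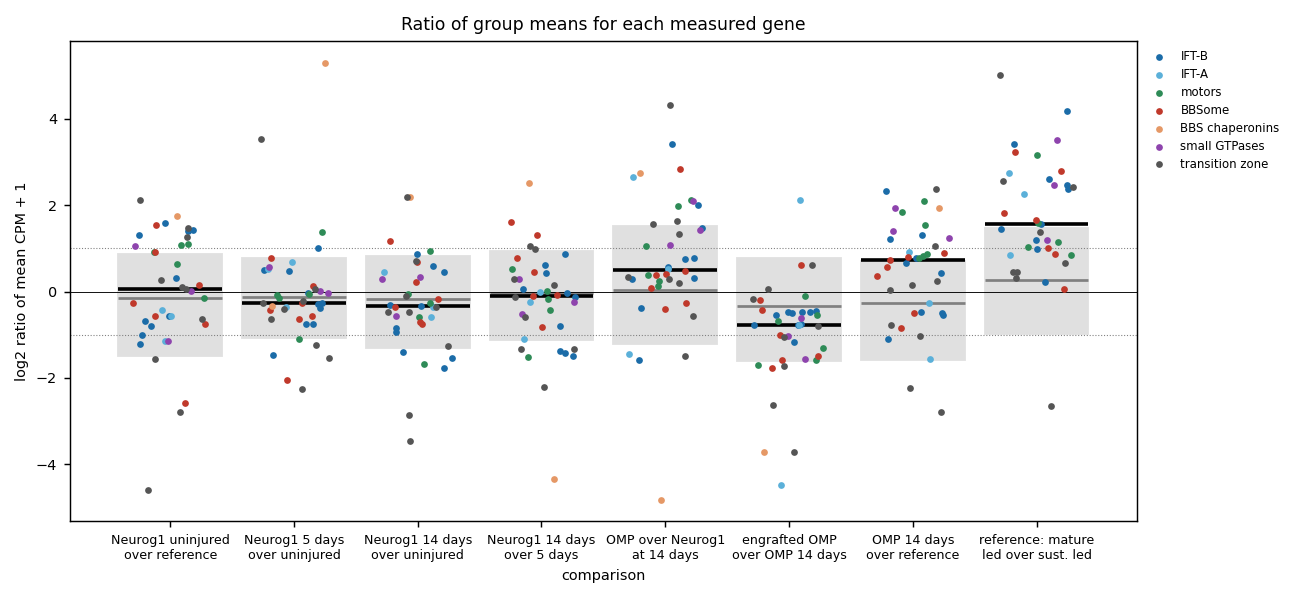
log2 ratio of mean CPM + 1 (vertical axis) for each measured gene of the list (points, coloured by role) in 8 comparisons; black bars are medians of the list, grey bars and boxes the median and quartiles of all measured genes, and dotted lines a 2-fold difference. The list lies above all genes for the OMP over the Neurog1 sort at 14 days (0.50 against 0.04) and below them for the engrafted over the 14 day OMP sort (-0.77 against -0.34).

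After bulbectomy most genes of the list had a lower mean in Neurog1 cells, as did most of all genes measured. The summed level of the list was not lower: its median was 3577 CPM in uninjured cells, 4277 at 5 days and 3928 at 14 days. At 5 days 26 of 39 genes had the lower mean than in uninjured epithelium and at 14 days 25 of 38; both comparisons share the uninjured cells. The medians were -0.26 and -0.34, against -0.13 and -0.17 for all genes. At least 2-fold lower were 6 genes at 5 days (15.4%, against 26.3% of all genes) and 7 at 14 days (18.4%, against 29.9%). At least 2-fold higher were 4 (10.3%, against 20.9%) and 3 (7.89%, against 22%). The share of genes 2-fold apart was thus smaller in the list than over all genes at both times. Without the libraries with sustentacular markers the medians were -0.19 and -0.39.

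B9d2 of the transition zone had the largest difference in the share of cells between 14 days and uninjured epithelium. It had a median of 0 and a highest value of 535 CPM in uninjured cells, a median of 0 and a highest value of 108.5 at 5 days and a median of 0 and a highest value of 134.7 at 14 days. It was found in 41.3% of cells (26.997 to 56.8), 20.8% of cells (10.47 to 34.99) and 8% of cells (0.984 to 26.03), and the uninjured and 14 day intervals did not overlap. The log2 ratios to uninjured were -2.26 and -2.86. At 100000 fragments per cell the shares were 40%, 25% and 8%, and no interval of the list stood apart at either time. Tctn3, another transition zone gene, had -1.24 and -3.46, found in 15.2%, 8.33% and 4% of cells. At 5 days Ift20 (-1.48), Bbs1 (-2.06), Dync2li1 (-1.11) and Tctn1 (-1.53) were also 2-fold lower, but Tctn1 was at -0.17 without the highest cell. At 14 days Ift27 (-1.77), Ift52 (-1.40), Ift80 (-1.55) and Kif3b (-1.68) were lower too. They are complex B, motor, BBSome and transition zone genes.

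In the other direction stood Kifap3, the cargo-binding subunit of kinesin-2. It had a median of 23.02 and a highest value of 1441 CPM in uninjured cells and a median of 152.98 and a highest value of 2753 at 5 days, a log2 ratio of 1.38, and was found in 58.7% of cells (43.2 to 73.002) and 77.1% of cells (62.7 to 87.97). At 14 days the mean was 287.2 (0.94), and 150.9 without the highest cell. Ift57 reached 2-fold at 5 days (1.002) and 0.58 without the highest cell, and Bbs5 was at 1.18 at 14 days and 0.29 without it. Bbs10, listed at 0 in uninjured cells, had a mean of 38.6 CPM at 5 days, nearly all from 1 cell at 1813. Bbs12 was at 2.19 at 14 days, but at -1.97 without its highest cell. Of the signalling genes of the olfactory cilium, 13 of 14 were lower at 5 days and 13 of 14 at 14 days, with medians of -0.98 and -0.88. The Omp gene itself, a marker of maturity, had means of 854, 118.2 and 96.9 CPM in the 3 sorts. The sum of the 12 mature neuron markers had means of 5870, 2369 and 1872 CPM there. The part of these in the lower means of single genes was not tested.

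Between the injured groups themselves, 23 of 39 genes were lower at 14 than at 5 days, with a median of -0.09 (-0.03 for all genes). At least 2-fold lower were 9 (23.1%, against 27.1% of all genes) and higher 4 (10.3%, against 23.8%). Tctn3 (-2.22), Kif3b (-1.52), Ift27 (-1.49), Ift88 (-1.44) and Ift52 (-1.37) were among the lower genes; Ift88 was found in 54.2% and 48% of cells at the respective times. Bbs5 (1.61) and Bbs1 (1.30) were higher; Bbs5 was at 0.87 without the highest cell, and Bbs1 was found in 4.17% and 8% of cells. Bbs10 at -4.34, Bbs12 at 2.52 and Tctn1 at 1.05 each rested on a single high cell, and were at -0.88, -1.89 and -0.02 without it. No interval of a share stood apart.

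Within the Neurog1 sorts, cells with and without Omp at a CPM of 10 did not differ in a single direction. Cells with Omp numbered 27 of 46 in uninjured, 17 of 48 in 5 day and 8 of 25 in 14 day epithelium. In them 24 of 37, 17 of 38 and 20 of 37 genes of the list were higher, with median log2 ratios of 0.48, -0.20 and 0.49 (0.24, -0.19 and 0.03 for all genes). A cut on 1 gene is a range of cells and not a cell type, and a cell below it may still hold Omp.

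Engrafted OMP cells had lower means than OMP cells 14 days after bulbectomy in nearly every gene of the list. Of 38 measured, 34 were lower: all 10 complex B genes, all 6 motors, all 3 GTPases and 6 of 7 BBSome genes. The median was -0.77, against -0.34 for all genes. At least 2-fold lower were 16 (42.1%), against 35% of all genes, and at least 2-fold higher 1 (2.63%), against 21.7%. Without the highest cell of each gene 15 of the 16 stayed 2-fold lower. This setting takes a larger part of the 29 engrafted cells than of the 42 cells of the other sort. The 4 higher genes were Ift122, Bbs9, B9d2 and Cep290. Median depth was 501827 and 1347935 fragments in the 2 groups, immature marker sums 1355 and 3957 CPM and precursor sums 8.80 and 3125; their part in the difference was not tested. At 100000 fragments per cell the median was -0.77 as well, and without the libraries with sustentacular markers it was -0.71.

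Bbs4, a coat subunit, had the largest difference in the share of cells. The 14 day OMP sort had a median of 125.4 and a highest value of 2299.5 CPM and the engrafted sort a median of 0 and a highest value of 804, with Bbs4 found in 71.4% of cells (55.4 to 84.3) and 34.5% of cells (17.9 to 54.3), the only intervals of the list that did not overlap. Cells of both groups overlapped. Its log2 ratio was -1.49, and at 100000 fragments the shares were 71.4% and 34.6%, with overlapping intervals. Bbs7, another coat subunit with the X-box pattern shown above, was at -1.78, found in 54.8% and 20.7%. Kifap3 was at -1.71, but found in 83.3% and 75.9%, so that its level per cell differed more than the number of cells. Tctn3 was at -1.72. Ift140 was at -4.49, found in 23.8% and 3.45%; the 14 day mean of 93.2 CPM was 22.4 without 1 cell at 2994. Bbs10 and Nphp4 were listed at 0 after engraftment. Ift122, in the other direction, was at 2.13, from 14.3% and 17.2% of cells. Olfactory cilium signalling genes differed less, with 11 of 14 lower and a median of -0.19. Other transport genes were lower in 16 of 23 (median -0.58) and other transition zone genes in 13 of 20 (-0.32).

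Against the unsorted reference, which mixes cell types, the 14 day OMP sort was higher in 27 of 39 genes, with a median of 0.74 (-0.27 for all genes). At least 2-fold higher were 12 (30.8%, against 18.8% of all genes) and lower 5 (12.8%, against 33.9%). Rpgr (2.37), Ift74 (2.33), Kif17 (2.09), Arl13b (1.94), Bbs10 (1.93) and Kifap3 (1.83) led. Without the highest cell of each group Rpgr was at 1.71, Kif17 at 1.41 and Bbs10 at 1.18, and the Rpgr mean of the OMP sort alone was 106.4 in place of 219.4. The lower genes included Nphp4 (-2.25), Ift122 (-1.55), Ift27 (-1.09) and B9d2 (-1.03, or -0.75 without the highest cell). The share of cells was larger with intervals apart for 12 genes: Ift20, Ift74, Ift81, Ift88, Ift43, Kif3a, Kifap3, Dync2li1, Bbs4, Bbs7, Arl6 and Rpgr. How many of all genes had intervals apart is not given here, and the OMP sort had more genes per cell than the reference. Ift81 and Ift43 were found in more OMP cells although their means were lower, at -0.49 and -0.26; a reference cell at 9529.8 CPM of Ift81 and another at 3214 of Ift43 stood in the reference, whose means without them were 160.4 and 94.4. At 100000 fragments 9 genes stood apart, of which Kif3b and Bbs9 were not among the 12, and without the 9 libraries over 10000 genes 21, when 13 genes were at least 2-fold higher (33.3%, against 22.1% of all genes) and 4 lower (10.3%, against 32%).

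The reference runs did not give the same size. Against run 1 alone 23 of 38 genes were higher in the OMP sort (median 0.14), and against run 2 alone 30 of 39 (1.35). Run 2 held more cells led by sustentacular markers, 45 of 70 against 26 of 68. Against the reference cells led by mature markers only, 18 of 38 genes were higher and 20 lower, with a median of -0.01 and -0.26 for all genes. At least 2-fold higher were 7 (18.4%, against 20.8%) and lower 10 (26.3%, against 32.5%), and no share interval stood apart, although that of Kif3a did at 100000 fragments. These reference cells include the 9 libraries with over 10000 genes. Without those libraries 2 genes had a larger share in the OMP sort with intervals apart, and at 100000 fragments Kif3a alone. The median of all genes was then -0.005. Rpgr (2.16), Ift74 (1.91), Kifap3 (1.23), Kif3b (1.18) and Arl13b (1.15) were among the 7 genes 2-fold higher in the OMP sort. Rpgr was at 1.78 without the highest cell of each group.

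The engrafted OMP cells, compared with the whole unsorted reference, had 22 of 37 genes lower and a median of -0.42 (-0.64 for all genes). At least 2-fold higher were 4 (10.8%, against 16.5% of all genes) and lower 12 (32.4%, against 42.8%). Ift74 (1.86), Rpgr (1.58), Kif3b (1.45) and Cep290 (1.11) were those higher, and Kif3b was at -0.52 without its highest cell. The engrafted share was larger for Kifap3 and smaller for Ift140, with intervals apart; at 100000 fragments this held for Ift140 and not for Kifap3. Against reference cells led by mature markers 28 of 36 were lower, with a median of -1.07 (-0.62 for all genes), 19 at least 2-fold lower (52.8%, against 42.6%) and 3 higher (8.33%, against 18.8%). Ift140, the complex A subunit, was lower there at -3.95, Ift81 at -2.23 and Ift43 at -1.79. The reference mean of Ift81 in this comparison includes the single high cell named above. The 9 libraries with over 10000 genes are among the reference cells led by mature markers, and this comparison was not made without them.

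The uninjured Neurog1 sort was not shifted against the reference as a whole, with 21 of 39 genes higher and a median of 0.07 (-0.16 for all genes). At least 2-fold higher were 12 (30.8%, against 22.4% of all genes) and lower 8 (20.5%, against 32.6%). The higher genes included Ift74 (1.597), Ttc8 (1.54), Rpgr (1.46) and Ift46 (1.43, or 0.79 without the highest cell). Tctn1 (2.11) and Bbs12 (1.75) were higher through single cells, and without these they were at 0.21 and 0.67. The lower genes included Bbs1 (-2.58), Nphp4 (-1.57), Ift57 (-1.23) and Arl3 (-1.16). Cep290, Kif3a and B9d1 were found in a larger share of the sorted cells with intervals apart and 1 gene in a smaller share, while 35 overlapped. At 100000 fragments Ift88 joined the larger shares and none was smaller. How many of all genes had intervals apart is not given here. For B9d1 the shares were 52.2% of cells (36.9 to 67.1) and 23.2% of cells (16.4 to 31.1), at nearly equal means. Without the libraries over 10000 genes 12 genes were at least 2-fold higher (30.8%, against 25.8%) and 5 lower (12.8%, against 30.5%), and Ift20, Ttc8 and B9d2 joined those with larger shares. Against run 1 alone 17 of 38 were higher (median -0.18) and against run 2 alone 29 of 38 (0.84), where Ift57 and Arl3 were no longer lower, at 0.14 and 0.80.

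Inside the reference itself the list was higher in cells led by neuronal markers. The cells were split by which summed CPM was larger, 12 mature neuron markers (67 cells) or 10 sustentacular markers (71 cells); no gene of the list is a marker. The split is a range and not a cell type, and 29 cells lay within 2-fold of the cut. A median of 11 genes was found per cell in the former (2 to 39) and 6 in the latter (0 to 24), although the latter had more genes per cell (2544 against 2314). The median summed level was 4395 and 1005 CPM. Of 37 genes, 36 had the higher mean in cells led by mature markers, and 26 were at least 2-fold higher (70.3%, against 34.1% of all genes) and 1 lower (2.70%, against 24.8%). The median was 1.56 (0.27 for all genes).

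The measured genes of 6 roles are counted here, since neither chaperonin gene was measured. All 10 complex B genes, 3 complex A genes, 5 measured motors, 7 BBSome genes and 3 GTPases were higher, with medians of 1.97, 2.26, 1.15, 1.65 and 2.47, and so were 8 of 9 transition zone genes (0.65). Ift81 had means of 445.4 and 23.5 CPM, Cep290 of 266.9 and 44.4, and Bbs5 of 114.4 and 11.3. The reference cell named above for its high Ift81 was among those led by mature markers, so that mean rests partly on it. Arl3 was found in 43.3% of cells (31.2 to 55.96) led by mature and 9.86% of cells (4.06 to 19.3) led by sustentacular markers, and Ift43 in 65.7% of cells (53.1 to 76.8) and 33.8% of cells (22.997 to 46.01). Bbs7 had nearly equal means, 75.2 and 72.4, because 1 cell led by sustentacular markers reached 4359.6; it was found in 35.8% and 9.86% of cells.

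**Figure D5:**
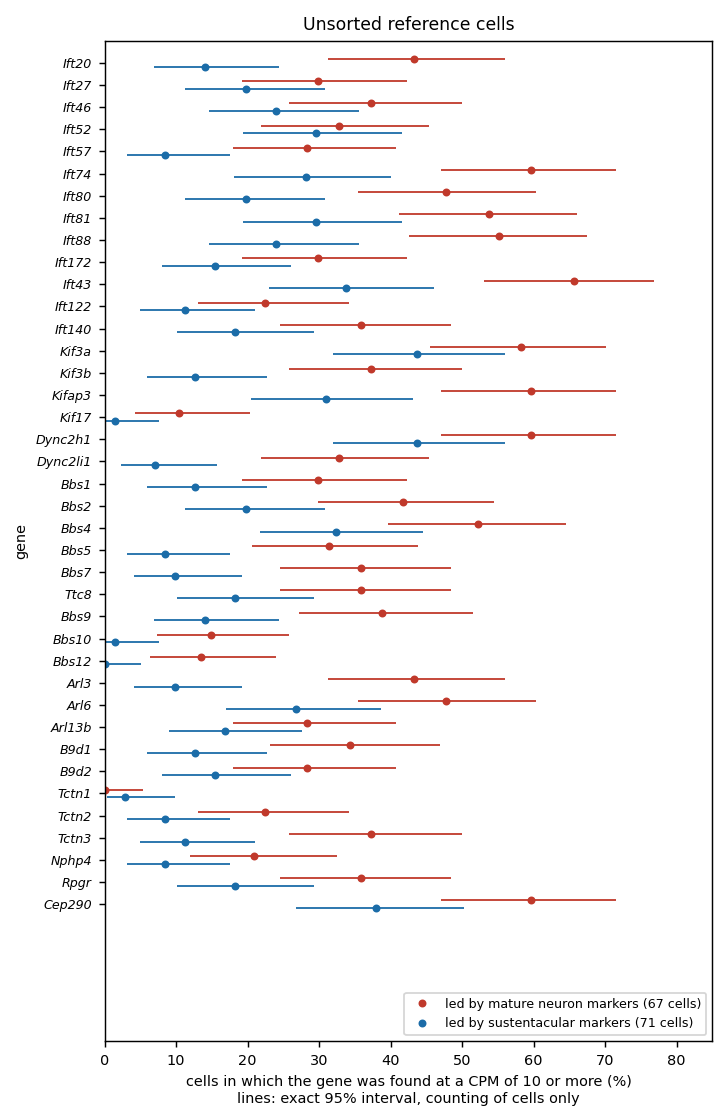
Share of reference cells in which each of 39 genes was found (points) with exact 95% intervals (lines), for cells led by mature neuron markers and by sustentacular markers. The points of the former lie to the right for all genes drawn but Tctn1, and 15 of the 37 measured genes have intervals apart, such as Arl3 with 43.3% and 9.86%. Without the 9 libraries with over 10000 genes 2 have intervals apart, and the count over all genes is not given here.

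The 9 libraries with over 10000 genes all fell among the cells led by mature markers, and the 2 measures responded differently to them. Without them 36 of 37 genes were still higher and 26 at least 2-fold higher (70.3%, against 29.9% of all genes), with a median of 1.56. But intervals of shares stood apart for 2 genes of the list, Ift43 and Arl3, in place of 15 (the count over all genes is not given here). At 100000 fragments per cell the counts were 15 with and 2 without these libraries, the latter being Ift43 and Ift88, so that Arl3 was no longer among them. Within run 1, 34 of 37 genes were higher (median 2.36, 0.50 for all genes), and within run 2, 28 of 37 (1.45, -0.17 for all genes). Other transport genes were higher in 19 of 24 (median 1.28), other transition zone genes in 15 of 21 (0.75), lipidated cargo genes in 8 of 11 (0.22) and motile axoneme genes in 9 of 11 (2.03). Multiciliated markers summed to medians of 527 and 5.35 CPM (0 to 4301 and 0 to 2862), with Tekt2 at 0 in the latter, and their part was not tested.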

How the data were processed

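The expression values were made by the authors, and no reads were processed here. The submitters' processing notes name FastQC, STAR 2.5.2a, Cufflinks 2.2.1, Cuffnorm and build mm9; the sources used here give neither their roles nor an annotation. The first deposited table holds signal per gene and library, fragments scaled by the authors to nearly equal totals, per the file headers and the values. The second deposited table holds FPKM, per its file header. Whole counts had been planned for; because the first table is scaled, its values were used as signal, without a count model. Dividing by the value of 1 fragment gave whole multiples (within 0.02) for a median of 98.4% of values per library, which gave the depths.

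Each value was expressed as CPM of its library's signal. Of 23308 entries, 27 had date names in place of symbols (0.418% of signal) and were left out, which left 23281 named genes. Libraries with fewer than 1000 genes at a value of 1 or more were left out. No 2 libraries held identical values, and no doublet caller was run. Every library is a single cell and the labels name no animals, so each group is 1 sample: no test was run, and ratios are log2 of mean CPM + 1, which understates the difference of low genes. A gene counted as measured in a comparison when its mean was at least 5 CPM on 1 side or both, and a 2-fold difference was counted. Shares have exact Clopper-Pearson 95% intervals, which cover the counting of cells only. Intervals were compared between groups for genes of the list only, so counts of intervals apart have no background over all genes. Group values are given in full for genes that in any group had a mean of at least 50 CPM and were found in at least 30% of cells, and each comparison names up to 6 genes each way past 2-fold; other genes singled out were chosen after their values were seen. The members and lists were chosen with earlier results of these data known. The computations were tested on simulated data. They used Python 3.11.15, numpy 2.4.6, pandas 2.3.3, scipy 1.17.1 and matplotlib 3.10.9. Alternatives changed the library and gene filters, pseudocount, summary over cells, depth, unit (FPKM), reference run and reference cells. RefSeq promoter windows of build GRCm38.p6 were matched by symbol only, and no coordinates of mm9 were used. Single values of 2 of the 41 genes are not reported here; the genes enter the counts and medians of the list.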

Additional observations from a re-analysis of the deposited data

How the results depend on the processing

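No paired analysis was possible because the libraries are single cells whose numbers name no shared animal. Across the alternatives, the share of measured genes with the higher mean was within its limits in 65 cases and moved in 4, and the median log2 ratio in 77 and 6. The comparison of the uninjured Neurog1 sort with run 2 of the reference alone gave 76.3% of genes higher and a median of 0.84, with Ift57 at 0.14 and Arl3 at 0.80, both turned. For the 14 day OMP sort over the reference, the median was 0.14 against run 1, 1.35 against run 2 and -0.011 against reference cells led by mature markers, where 47.4% of genes were higher. Averaging log2(CPM + 1) over cells gave 84.6% and a median of 1.44 for the 14 day OMP sort over the whole unsorted reference, and 92.5% for the OMP over the Neurog1 sort at 14 days. This average depends on how many cells hold a gene, and the OMP sort had the most genes per cell. The values over all genes for it are not given here, so a larger shift of the list than of all genes is not shown by it. Leaving out the highest cell of each gene gave the OMP over the Neurog1 sort at 14 days a median of 1.27, with Bbs12 at 0.083 and Ift122 at 0.89, both turned. It also turned Bbs12 at 14 days over uninjured (-1.97) and over 5 days (-1.89), and Tctn1 over 5 days (-0.024). This setting takes a larger part of the smaller group, and its median over all genes is not given here. At a found limit of CPM 50 the engrafted median was 7 genes per cell. Ratios of single genes were counted without the comparisons of the engrafted sort with the reference. Of these ratios 110 moved by over 1.5 times and 7 turned, all named here. Outside this count, Kif3b in the engrafted sort over the reference also turned without its highest cell. Other than in the leaving out of the highest cell and the run 2 setting, the cause was not tested. Cells at 0 in every group, 29 engrafted cells and 1 sample per group limit the precision.

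The alternatives that left out sorted libraries with 5 or more sustentacular markers, split the reference by run for single genes, or thinned the intervals were chosen after seeing the data.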
